A study of Nymphaea colorata and Nymphaea micrantha with 16 samples.

Results

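Water lilies differ in whether a leaf can form a new plantlet at its centre, a habit called vivipary. The viviparous *N. micrantha*, called X-species, was compared with *N. colorata*, called L-species, which does not form plantlets. RNA from leaves at 4 developmental stages was sequenced, and 2 libraries of each stage and species, 16 in all, were analysed here. All plants were wild type. At stage 1 the leaves were under water, rolled and 1 to 2 cm long, and at stage 2 they were still rolled and 4 to 6 cm long. At stage 3 the half-rolled leaf touched the water surface with its tip, and at stage 4 the leaf was fully unfolded. The groups are written X1 to X4 and L1 to L4, and a library by its group and replicate (X1-1). The study chose 6 plants of each species and mixed their leaves for each sample. It describes 3 biological repeats, and the data used here hold 2 libraries a group. Whether the repeats came from different plants is not stated, so the tests below need not measure the spread between plants.

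The genes described here were those with reads in *N. micrantha* leaves and none in *N. colorata* leaves. They were chosen by 2 conditions on the measured values: FPKM of exactly 0 in all 8 L-species libraries and FPKM of at least 1 in at least 2 of the 8 X-species libraries. FPKM counts the fragments on a gene relative to how long the gene is and how many fragments the library holds. Of the 31475 genes in the table, 100 met the rule. For scale, 16047 genes had FPKM of at least 1 in at least 2 X-species libraries, and these are called the genes tested below. The opposite rule, 0 in every X-species library and FPKM of at least 1 in at least 2 L-species libraries, held for 712 genes. The difference between the species is what chose the 100 genes, so it is described and not tested.

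Genes read in one relative and not in another are common when leaves of related plants are compared. Such lists are known to hold recent duplicates, members of fast-changing families such as the immune receptors, and enzymes of secondary metabolism that add methyl, acyl or sugar groups to small molecules. A value of 0 says that no read was counted on the gene model. A gene that was silent and a gene whose reads could not be placed on the model cannot be told apart in these values.

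The whole reads behind each FPKM value could be recovered, which gives the depth of each 0. Reads on genes numbered 37118842 to 51396582 in an L-species library and 24815135 to 31440253 in an X-species library. The 8 L-species libraries held 348771835 reads, and none fell on any of the 100 genes. As a scale for that depth, the mean FPKM in *N. micrantha* was set against the FPKM of 3 reads over all 8 L-species libraries. It was 10.2 times that value for the lowest gene and 2996 times for the highest, with a median of 90.9. The genes were chosen for their 0, so these values are no bound on the difference between the species. Of the 12 genes that the study's pathway lists give for photosynthesis and antenna proteins, 8 had reads in all 16 libraries. Those lists hold genes that differed in the study, the member NC2G0008370 among them, so this is no neutral check of the tissue. In X the medians of NC9G0272490 and NC9G0272520, which are among the 8, were only 0.148 and 0.0762. The median FPKM was higher in L for 6 of the 8, such as NC10G0233820 with 301 in L and 111 in X, and higher in X for 2, such as NC11G0115830 with 735 in L and 957 in X.

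One L-species library stood apart on the rule itself. When L1-1 was left out of the rule, 91 further genes met it and the list grew to 191. Leaving out any other single L-species library added 1 to 6 genes. The 91 genes had 0 reads in the other 7 L-species libraries and 858 reads in L1-1, from 1 to 221 reads a gene with a median of 3. Over all 191 genes, L1-1 held 16.7 RPM (reads on them for every 1000000 on genes), and the X-species libraries held 370 to 548 RPM, so the level in L1-1 was 3.05 to 4.51% of that in an X-species library. L1-1 was also the deepest library, at 51396582 reads. The source of these reads was not tested. For the genes at 0 in *N. micrantha*, no single X-species library had such an effect: leaving out 1 of them added 8 to 40 genes to the 712.

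**Figure D1:**
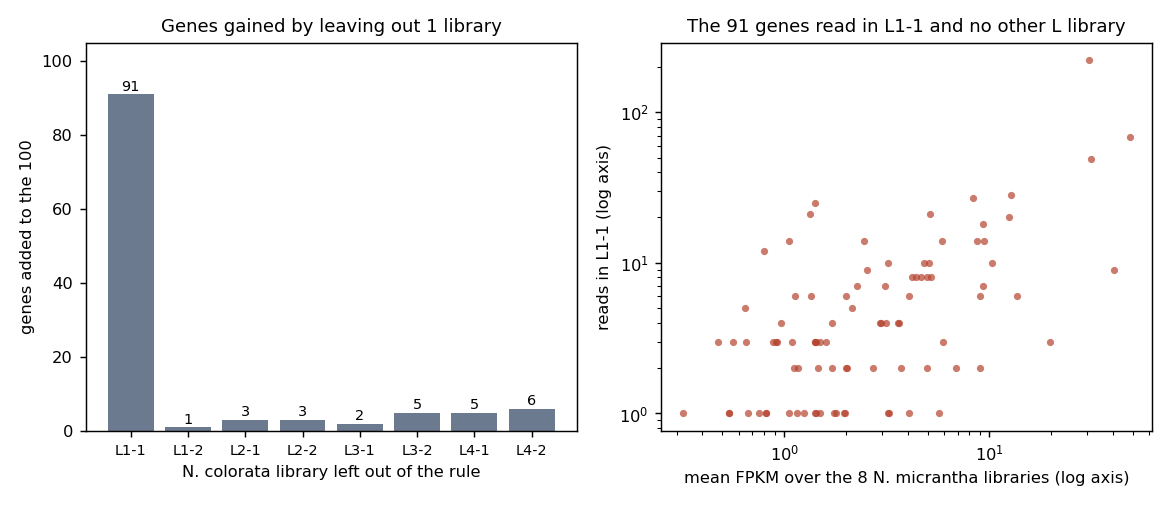
Left, the number of genes (bar height) added to the 100 when each *N. colorata* library in turn was left out of the rule. Right, for the 91 genes added by leaving out L1-1, the reads in L1-1 against the mean FPKM in *N. micrantha*, both axes logarithmic, 1 point a gene. The bar of L1-1 stands at 91 and the others at 1 to 6, and the 3 genes with 49, 68 and 221 reads in L1-1 all had a mean FPKM above 30 in *N. micrantha*.

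The genes that L1-1 removed were the stronger ones. Of the 32 genes among the 191 with a mean FPKM of at least 5, 23 had reads in L1-1 and 9 were at 0 there. Of the 51 with a mean FPKM under 1, 16 had reads in L1-1. The median of the mean FPKM was 2.14 over the 91 genes and 1.31 over the 100. These examples were chosen after their values were seen: NC5G0141020 had 68 reads in L1-1 and a mean FPKM of 48.5 in X, NC1G0131720 had 49 reads and a mean FPKM of 31.3, and NC6G0252890 had 221 reads and a mean FPKM of 30.6. The 100 genes are therefore the part of the list that was at 0 in L1-1 as well, and the counts below are also given for the 191.

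The 100 genes were read at a low level. Their mean FPKM over the 8 X-species libraries ran from 0.386 to 14.5, with a median of 1.31 and quartiles of 0.852 and 2.44. Over all 16047 genes tested the median was 11.9. A mean FPKM of at least 5 was reached by 9 of the 100 genes and by 73.3% of the genes tested. The median over the 191 genes was 1.65, so the low level was also there with L1-1 left out of the rule. In reads, a member had between 20 and 5859 (median 176) summed over *N. micrantha*, and together the 100 genes took 123 to 204 RPM in a library.

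Most of the 100 genes were read throughout leaf development. Reads were found in all 8 X-species libraries for 80 of them, against 97.5% of the genes tested. FPKM was at least 1 in all 8 libraries for 20 of them, against 82.3% of the genes tested. A further 23 passed the rule through exactly 2 libraries, against 3.02% of the genes tested. Of these 23, 11 passed through the pair of X4 libraries, 3 through the pair of X1 libraries and 9 through libraries of 2 stages. The stage with the highest mean was X1 for 33 genes, X2 for 18, X3 for 14 and X4 for 35. Among the genes tested these shares were 29.5% for X1, 20.6% for X2, 11.6% for X3 and 38.2% for X4.

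**Figure D2:**
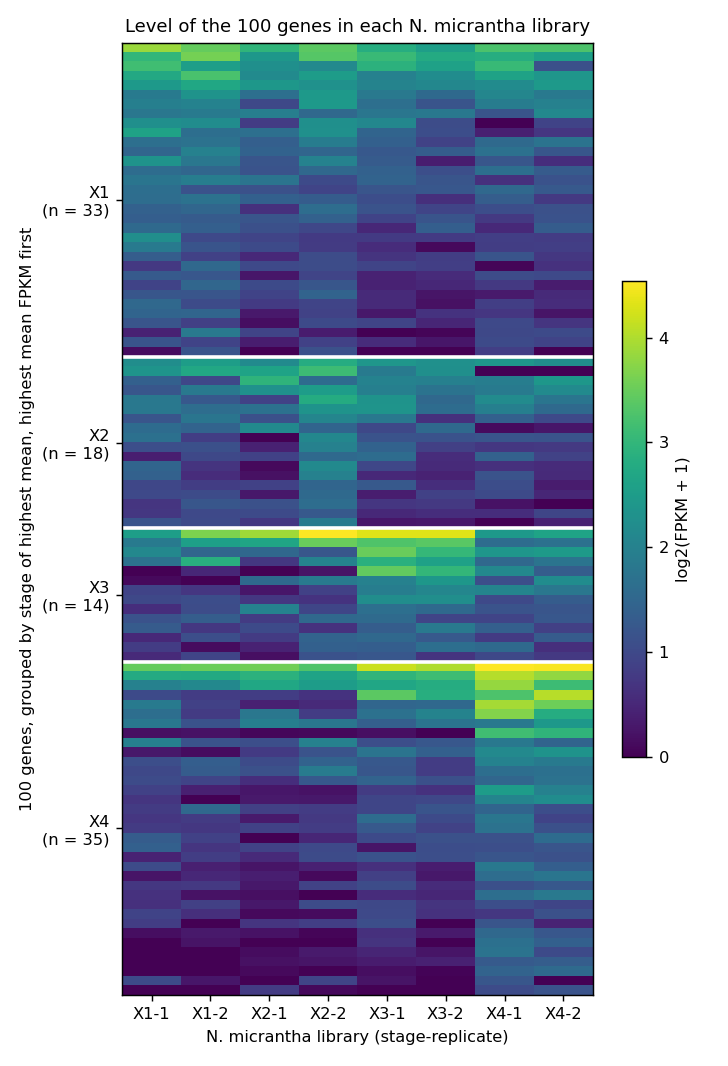
Level of each of the 100 genes (rows) in the 8 *N. micrantha* libraries (columns) as log2(FPKM + 1), with rows grouped by the stage of the highest mean and sorted by mean FPKM within a group. Most rows are read in all columns, and a block of rows at the lower end of the X4 group is near 0 before X4.

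The strongest member was NC7G0247450, whose terms in the study's annotation lists are response to sucrose, to glucose and to starvation, and kinase binding. Its FPKM was 10.1 and 10.5 at X1, 10.8 and 8.75 at X2, 17.0 and 15.0 at X3, and 22.3 and 21.6 at X4. The X3 and X4 libraries all lay above the X1 and X2 libraries. At X4 against X1 it rose by 1.02 on the log2(FPKM + 1) scale (SE 0.18, adjusted p = 0.00407 by limma), just past the fold required, and under it at 0.99 without X1-1, and not called without X4-1.

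NC10G0032160, the fourth strongest, carries the same 4 annotation terms as NC7G0247450. Its FPKM was 5.85 and 5.80 at X1, 6.58 and 5.19 at X2, 6.85 and 7.74 at X3, and 15.5 and 13.0 at X4. Only the X4 libraries stood clear of the rest. The rise at X4 against X1 was 1.15 (SE 0.20, adjusted p = 0.00370 by limma). Both genes have short models, 291 and 285 bases by the recovered lengths.

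NC11G0138380, annotated with the defense response to bacteria, had the steepest late rise among the 10 strongest members. Its FPKM was 1.02 and 0.746 at X1, 0.767 and 0.578 at X2, 9.53 and 6.20 at X3, and 8.63 and 15.6 at X4. It was low in the submerged leaves and high once the leaf had reached the surface, with no overlap. The log2 fold change was 2.38 at X3 against X2 (SE 0.31) and 2.75 at X4 against X1 (SE 0.31). Both are given as a description. Of the submerged libraries only X1-1 reached FPKM of 1, so the gene met the rule through X3 and X4.

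Of the 10 strongest members, NC2G0192220 and NC9G0092550 had the opposite late course. No readable annotation names either gene. The FPKM of NC2G0192220 was 4.86 and 11.5 at X1, 13.8 and 22.1 at X2, 18.9 in both X3 libraries, and 4.50 and 5.18 at X4. The FPKM of NC9G0092550 was 2.68 and 4.91 at X1, 5.38 and 10.4 at X2, 8.77 and 9.35 at X3, and 2.03 and 2.25 at X4. Both were high in X2-2 and the X3 libraries and low in the X4 libraries. They fell at X4 against X3, NC2G0192220 by a log2 fold change of -1.77 (SE 0.37, adjusted p = 0.0138 by limma) and NC9G0092550 by -1.68 (SE 0.33, adjusted p = 0.0114). Both calls were lost when any 1 of X3-1, X3-2, X4-1 or X4-2 was left out, and the adjusted p reached 0.0972 and 0.0898.

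NC3G0197190 rose at X4 against X1 by 1.41 (SE 0.26, adjusted p = 0.00469 by limma). Its FPKM was 3.01 and 3.35 at X1, 5.51 and 4.72 at X2, 5.41 and 6.01 at X3, and 13.1 and 7.70 at X4, so the X4 libraries were the highest but disagreed with each other.

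The remaining 4 of the 10 strongest were not called in any comparison. NC4G0022660 had FPKM between 4.82 in X3-2 and 13.5 in X1-1. NC1G0065450 had FPKM between 4.27 in X2-1 and 11 in X1-2. NC9G0052880, placed by the study's lists in DNA replication and in purine and pyrimidine metabolism, had FPKM between 3.01 in X3-1 and 8.38 in X1-2. NC7G0296850 had FPKM between 1.17 in X4-2 and 7.82 in X1-1. In NC1G0065450 and NC7G0296850 the libraries of different stages overlapped. In NC4G0022660 the X1 libraries lay above all others and the X3 libraries below, and in NC9G0052880 the X1 libraries lay above all others, with adjusted p for any stage difference of 0.0542 and 0.0824 by limma.

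**Figure D3:**
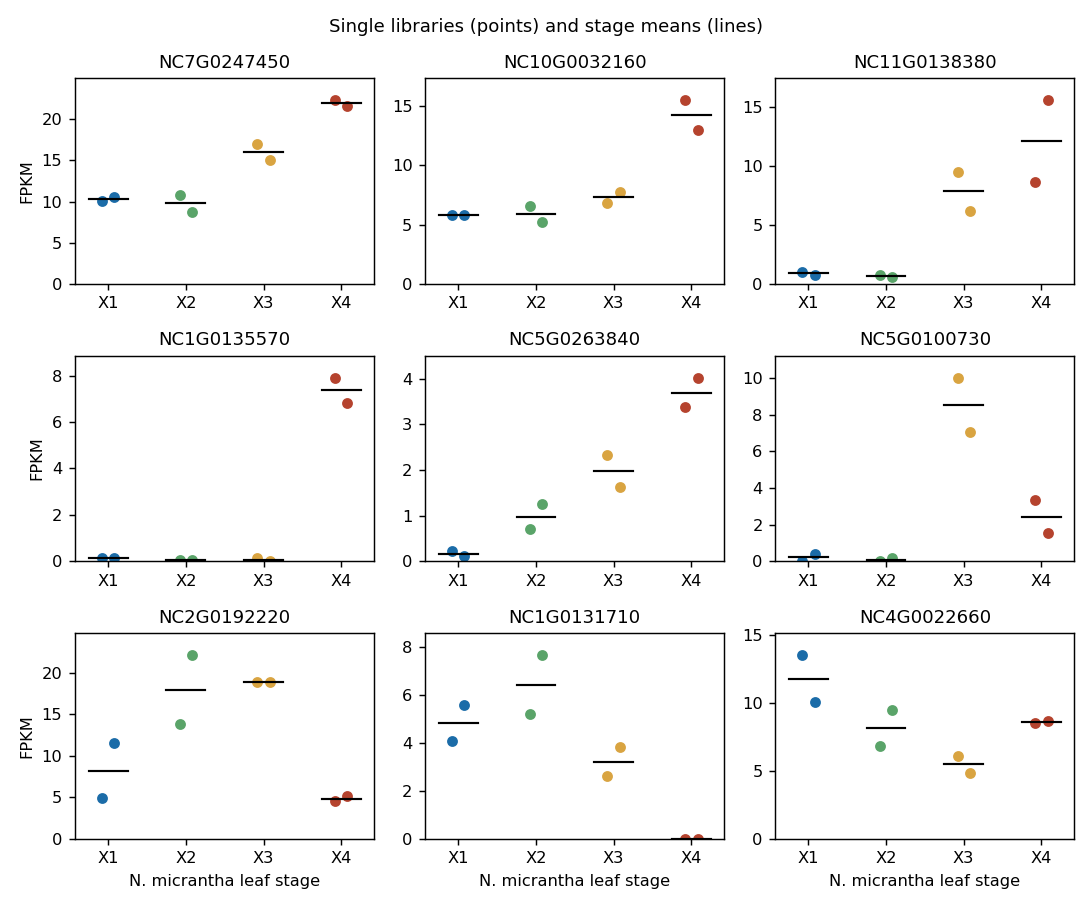
FPKM of 9 genes in single *N. micrantha* libraries (points) and stage means of n = 2 (lines), each panel with its own axis from 0. The first 2 rows hold genes that were higher at X4 than at X1, NC5G0100730 with its highest level at X3, and the last row holds NC2G0192220, NC1G0131710, which had 0 reads at X4, and NC4G0022660, which was not called.

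Stage differences within *N. micrantha* were tested with limma on log2(FPKM + 1) in the 8 X-species libraries. A gene was called when its Benjamini-Hochberg adjusted p over all 16047 genes tested was under 0.05 and its log2 fold change was 1 or more in either direction. The study describes its repeats as biological, and with 2 libraries a group the spread between them is known only roughly. Any difference between stages was called for 31 of the 100 genes, against 32.8% of all genes tested. The share was close to the background. Without X4-1 the count was 16, without X4-2 it was 20, and of the 191 genes 59 were called.

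The comparison of fully unfolded with the youngest leaves gave the most calls. At X4 against X1, 21 of the 100 genes rose, against 13.3% of all genes tested, and 4 fell, against 10.5%. The median log2 fold change was -0.01 over the 100 genes and -0.04 over the genes tested. Of the 21 that rose, 11 had FPKM of at least 1 at X4 and at no other stage, so they met the rule only through the stage at which they were high and had to differ there. Among the others, NC13G0148980 and NC5G0100730 reached that level at X3 and X4 only, and NC5G0263840 and NC8G0240670 at X2, X3 and X4 only. They too met the rule without X1, so the number that rose is partly set by the rule. Of the 191 genes, 29 rose and 14 fell.

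**Figure D4:**
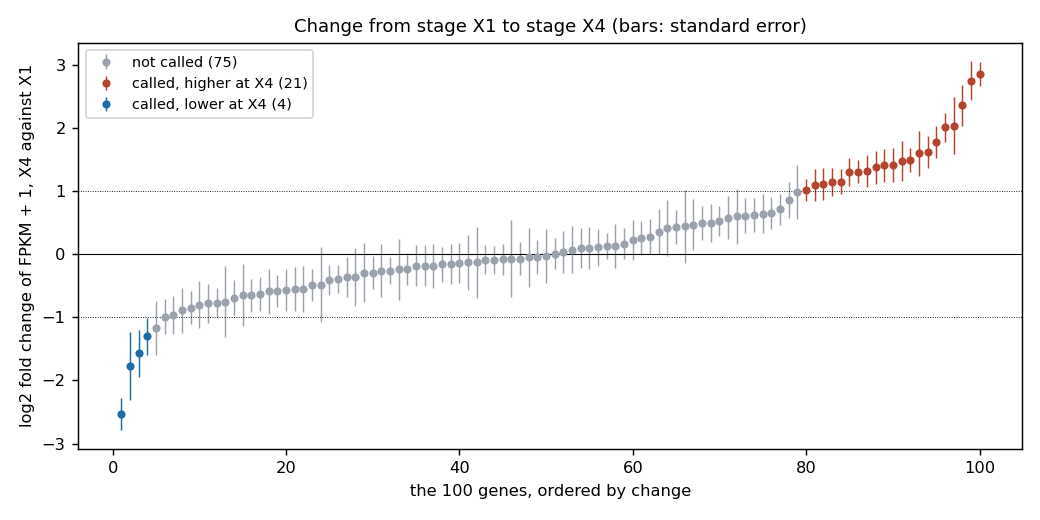
Log2 fold change of FPKM + 1 at X4 against X1 for each of the 100 genes, in order of change, with the standard error of the limma fit as bars and dotted lines at -1 and 1. The 21 genes that rose reach 2.86 and the 4 that fell reach -2.53, and the 75 others were not called.

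The largest rise belonged to NC1G0135570, which no readable annotation names. It had 2 reads in each X1 library, 1 in each X2 library, 2 and 0 at X3, and then 110 and 92 at X4, an FPKM of 7.90 and 6.83. Nearly all its reads were in fully unfolded leaves. The log2 fold change was 2.86 at X4 against X1 (SE 0.19) and 2.97 at X4 against X3 (SE 0.19), given as a description, since the gene passed the rule only through X4.

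NC7G0296060 rose by 2.36 at X4 against X1 (SE 0.32, adjusted p = 0.00128 by limma). Its FPKM was 2.63 and 0.846 at X1, 0.334 and 0.452 at X2, 1.83 and 1.90 at X3, and 14.2 and 10.7 at X4. The step was between X3 and X4, where the log2 fold change was 2.22 (SE 0.32, adjusted p = 0.00388).

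NC11G0242250 had FPKM of 2.11 and 0.736 at X1, 2.48 and 0.749 at X2, 2.25 and 3.07 at X3, and 12 and 6.02 at X4. The X4 libraries were above all others, and the pairs of libraries at X1, X2 and X4 disagreed with each other. The rise was 2.04 (SE 0.45, adjusted p = 0.0104 by limma), and the call was lost without X1-2 (0.0611) or X4-1 (0.0828).

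NC5G0263840 climbed at each step. Its FPKM was 0.218 and 0.113 at X1, 0.713 and 1.25 at X2, 2.34 and 1.62 at X3, and 3.38 and 4.02 at X4, with no overlap between neighbouring stages. The log2 fold change at X4 against X1 was 2.01 (SE 0.23), given as a description, since the gene met the rule through X2, X3 and X4 only. No single step was called.

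The 4 genes that fell from X1 to X4 had no readable annotation. All 4 reached FPKM of 1 at X1, X2 and X3 only and met the rule through those stages. Their falls are therefore given as a description. NC1G0131710 had 44 and 50 reads at X1, 59 and 80 at X2, 27 and 38 at X3, and 0 in both X4 libraries. It was the 1 member of the 100 with no read at X4. The fall was -2.53 at X4 against X1 (SE 0.26) and -2.06 at X4 against X3 (SE 0.26).

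The next ID, NC1G0131720, had a matching course. It was among the 91 genes with reads in L1-1 and so not a member, and its FPKM was 40.4 and 48.1 at X1, 42.3 and 55.5 at X2, 27.4 and 27.9 at X3, and 5.20 and 3.55 at X4. This gene was picked after its values were seen.

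NC4G0303600 had FPKM of 3.77 and 3.60 at X1 and of 0 and 0.891 at X4, a fall of -1.77 (SE 0.54). NC7G0246300 had FPKM of 5.17 and 2.11 at X1 and of 0.316 and 0.654 at X4, a fall of -1.57 (SE 0.37). NC4G0022700 had FPKM of 1.99 and 1.72 at X1 and of 0.103 and 0.213 at X4, a fall of -1.30 (SE 0.29). In each of the 4 the X1 and X4 libraries did not overlap. The call of NC4G0303600 was lost with no filter, with voom and without any 1 of the X1 or X4 libraries. That of NC7G0246300 was lost without X1-1, X4-1 or X4-2, and that of NC4G0022700 without the same libraries.

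At X4 against X3, when the leaf unfolds, 11 of the 100 genes rose, against 8.94% of all genes tested, and 6 fell, against 5.50%. The median log2 fold change was 0.18 over the 100 genes and 0.25 over the genes tested, and median-ratio scaling of the libraries brought both to 0.05. Of the 11 that rose, 9 had met the rule only through X4. The third largest rise was that of NC8G0124810, annotated as a glycerophosphodiester phosphodiesterase, an enzyme that splits glycerol phosphate from deacylated lipids. Its FPKM was 0.726 and 0.559 at X3 and 4.72 and 2.99 at X4 (log2 fold change 1.54, SE 0.26), a description as well, since it passed the rule only through X4. The counts at this step depended on single libraries: 7 genes were called without X3-1, 4 without X3-2, 8 without X4-1 and 7 without X4-2, against 17 with all. Of the 191 genes, 18 rose and 12 fell.

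At X3 against X2, when the leaf tip reaches the surface, 5 of the 100 genes rose, against 4.65% of all genes tested, and 0 fell, against 6.67%. The count model of limma, voom, also called 5 that rose and 0 that fell. Of the 191 genes, 9 rose and 3 fell. Without X2-1 the result was 5 that rose and 6 that fell, and without X3-1 it was 3 that rose. The scaling moved the median over all genes tested from -0.12 to 0.00 at this step.

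The strongest change at that step was in NC5G0100730, annotated as a methyltransferase of the Golgi apparatus and endosomes. It had 0 and 2 reads at X1, 0 and 1 at X2, 56 and 38 at X3, and 18 and 8 at X4. It was highest at X3, and the X4 libraries lay between those of X3 and those of the submerged stages. The gene reached FPKM of 1 at X3 and X4 only and met the rule through those stages. Its changes from the submerged stages are therefore given as a description. The log2 fold change was 3.12 at X3 against X2 (SE 0.32). It was -1.50 at X4 against X3 (SE 0.32, adjusted p = 0.0159), where the call was lost with pseudocount 0.1, with voom (adjusted p = 0.0876) and without X3-1, X3-2 or X4-2, the adjusted p running from 9.56e-04 to 0.162 over the 14 alternatives. It was 1.48 at X4 against X1 (SE 0.32), again as a description.

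NC3G0221860 had FPKM of 1.87 and 1.33 at X2 and of 10.3 and 7.12 at X3, a rise of 1.89 (SE 0.28, adjusted p = 0.00521 by limma, and 0.0603 without X3-1), and 4.20 and 4.54 at X4. It was highest at X3, as was NC5G0100730.

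At X2 against X1, both submerged and rolled, 0 of the 100 genes rose, against 0.337% of all genes tested, and 0 fell, against 0.187%. With voom 0 were called as well. Without X2-2 1 gene was called, and of the 191 genes 2 rose. Few genes of any kind were called between the submerged stages.

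Annotation was read from the study's lists of gene ontology terms and pathways, which are shortened, so these are counts of what could be read. They named 51 of the 100 genes and 4104 of all 31475. A gene ontology term named 48 of the 100 (4065 of all) and a pathway 6 (326 of all). The study drew the lists from its differentially expressed genes, so the share among the 100 was not tested. None of the 43 readable IDs of 4 transposon-type terms (DNA integration, DNA recombination, RNA-directed DNA polymerase and aspartic-type endopeptidase activity) was a member, and NC5G0200830 carried the single term transposition. The term DNA-binding transcription factor activity named 0 members out of 30 readable IDs, and so did defense response out of 30. The ribosome pathway (17 readable IDs) and the flavonoid pathway (9) also named 0. Lists this short say little about the members.

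Enzymes that modify small molecules were among the annotated members. NC4G0030280 is listed as a caffeate O-methyltransferase, which methylates lignin precursors. It had FPKM of 0.748 and 0.113 at X1, 0.356 and 1.64 at X2, 1.56 and 2.13 at X3, and 1.93 and 0.524 at X4, and was not called. NC11G0122130 is listed as an O-methyltransferase. It had 0 reads at X1, 7 and 9 at X2, 12 and 14 at X3, and 61 and 63 at X4. The X4 libraries were far above the rest. It reached FPKM of 1 at X4 only and so was in the list through that stage alone, and for it and the other members of this kind the values are given with no test.

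Other enzymes followed other courses. NC6G0154430, an acyltransferase by its term, had its highest FPKM of 6.74 in X2-1 and 2.00 in X2-2, so that maximum rested on 1 library. NC1G0017870 is listed as an alcohol-forming fatty-acyl-CoA reductase of wax and suberin biosynthesis. Its FPKM was 1.13 and 1.57 at X1 and 3.05 and 2.61 at X4, a change that was not called. NC10G0142930, a heme peroxidase of the extracellular region by its terms, had 0 reads at X1, 2 and 4 at X2, 6 and 3 at X3, and 35 and 15 at X4. It too was in the list through X4 alone.

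A few members carry hormone terms. NC8G0240670 is listed as an indole-3-acetic acid amido synthetase, an enzyme that ties auxin to amino acids. It had 1 and 0 reads at X1, then 25 and 31 at X2, 35 and 49 at X3, and 13 and 40 at X4. Reads were nearly absent in the youngest leaves alone. The log2 fold change at X4 against X1 was 1.60 (SE 0.36), given as a description, since the gene met the rule through X2, X3 and X4 only. Its call was lost without X1-2 or X4-2. NC7G0246440, with the term gibberellin biosynthetic process, had 12 and 3 reads at X1, 3 and 0 at X2, 10 and 8 at X3, and 42 and 49 at X4, and was in the list through X4 alone.

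NC3G0208520 carries the terms of a phosphorelay response regulator of the cytokinin pathway. Its FPKM was 0.671 and 0.686 at X1 and 1.15 and 1.39 at X4, between 0.221 in X2-1 and the X4-2 value over all libraries, and it was not called.

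Immune-type terms marked several further members. NC13G0311900 and NC2G0008960 carry ADP binding, a term of the nucleotide-binding immune receptors, out of 30 readable IDs with that term. NC13G0311900 had FPKM between 0.505 in X2-1 and 2.26 in X4-2, and NC2G0008960 between 0.220 in X2-1 and 1.14 in X4-1. Neither was called. NC12G0012600, with terms for AT-rich DNA binding and negative regulation of innate immunity, had 0 reads at X1, 3 and 0 at X2, 4 and 1 at X3, and 55 and 61 at X4. NC1G0104360, with terms for chitin binding, kinase activity and innate immune response, had 15 and 0 reads at X1, 6 and 5 at X2, 21 in both X3 libraries, and 69 and 77 at X4. In both genes the X4 libraries were the highest, and both were in the list through X4 alone.

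Housekeeping-type terms were present as well. NC2G0008370 is placed in the photosynthesis pathway, with terms for heme binding and electron transfer in the thylakoid lumen. Its FPKM was 2.51 and 2.08 at X1, 2.24 and 4.04 at X2, 4.09 and 2.04 at X3, and 2.89 and 1.93 at X4, so the stages overlapped. NC5G0050440 carries chaperone and heat response terms, and its FPKM lay between 3.10 in X3-1 and 5.52 in X1-2. NC6G0257060, an inorganic diphosphatase by its term, lay between 0.663 in X2-1 and 6.35 in X3-1. None of the 3 was called.

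NC7G0246200, placed in pathways that break down chlorinated and aromatic compounds, had FPKM between 1.31 in X1-1 and 4.72 in X2-2. NC3G0243830, with the term post-embryonic development, lay between 1.92 in X3-2 and 4.52 in X2-2. A pair of members, NC12G0096060 and NC3G0312720, share terms for a DNA translocase of double-strand break repair. NC12G0096060 had FPKM between 0.871 and 5.97, both at X2, and NC3G0312720 between 0.118 in X2-1 and 1.30 in X1-1.

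By the median difference, the 2 libraries of a stage agreed less well on these low genes than on genes at large. The median difference between the 2 libraries, in size on the log2(FPKM + 1) scale, was 0.38 at X1, 0.50 at X2, 0.29 at X3 and 0.29 at X4 over the 100 genes. Over the genes tested it was 0.28, 0.40, 0.15 and 0.18. Differences of at least 1 were less clear-cut. From X1 to X4 they were seen for 5, 13, 4 and 3 of the 100 genes, against 6.53%, 11.9%, 0.38% and 0.966% of the genes tested. At X2 the difference had a direction: X2-2 was higher than X2-1 for 68 of the 100 genes and lower for 31, while X2-1 was higher for 48.7% of the genes tested. The 100 genes took 123 RPM in X2-1 and 193 RPM in X2-2. The part of this in the X2 comparisons was not tested. Above, X2 against X1 is given without X2-2, and X3 against X2 without X2-1.

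The largest disagreements were in X2 and X4. NC5G0162010, annotated with protein import into the chloroplast, had 0 reads in X2-1 and 35 in X2-2. NC312960 had 1 read in X2-1 and 40 in X2-2. NC7G0296850 had 39 reads in X4-1 and 6 in X4-2. In the first 2 genes X2-1 was the lowest and X2-2 the highest of all 8 libraries, and in NC7G0296850 the X4-2 library was the lowest.

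The members were spread over all blocks of the ID system. An ID holds a prefix (NC1G to NC14G, or NC alone) and a number, and 98.4% of neighbouring IDs of a prefix are 10 apart. Whether the order of IDs is the order along a chromosome is not given in the sources used here. Of the 100 genes 12 had the prefix NC7G, 11 NC1G and 10 NC5G, and the other prefixes held 1 to 8 each. NC7G held 4.78% of the genes tested and NC1G 14.6%, so the share of the tested genes that were members was 1.56% in NC7G and 0.469% in NC1G.

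A run was defined as members of 1 prefix with at most 2 other IDs between neighbours. The 100 genes held 5 runs, all of them pairs, with 10 members in all. NC11G0210160 and NC11G0210170 were both highest at X4. NC11G0210160 had FPKM of 0.197 and 0.426 at X1 and of 2.1 and 2.42 at X4. NC11G0210170 had FPKM of 0.118 and 0.238 at X1 and of 1.88 and 1.35 at X4. Both were in the list through X4 alone.

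The other 4 pairs differed in the stage of the highest mean. NC1G0178010 had a mean FPKM of 1.26 and was highest at X1, with NC1G0178020, annotated as a sodium and potassium proton antiporter, highest at X2. NC2G0190300 had a mean FPKM of 1.28 and was highest at X3, with NC2G0190290 at X1. NC5G0050440 had a mean FPKM of 4.07 and was highest at X1, with NC5G0050460 at X4, and the ID between them, NC5G0050450, had 5 reads in the L-species libraries. NC6G0256440 had a mean FPKM of 0.809 and was highest at X1, with NC6G0256450 at X4. None of these 8 genes was called in any comparison.

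Leaving L1-1 out of the rule gave a longer list with more runs. The 191 genes held 18 runs with 39 genes, of which 4 runs were of members alone, 8 held members and added genes, and 6 held added genes alone. A run of 4, NC9G0170780, NC9G0170790, NC9G0170810 and NC9G0170820, consisted of genes that all had reads in L1-1. The number of members lying in a run went from 10 to 17. It could only stay or rise, since the 191 genes hold the 100. For the neighbours on either side of the 100 genes, 11.5% had FPKM of at least 1 in at least 2 X-species libraries and not in 2 L-species libraries, against 2.55% for the neighbours of all genes tested. Neighbours that reached this level in neither species made up 49.5%, against 24.1%. The 11.5% stands for 23 neighbours, and 8 of these were members themselves, in the 4 pairs with no ID between. Members are of this kind by the rule, so that share is partly set by it.

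The members just inside the rule were NC7G0236270 and NC6G0256450, whose second-highest FPKM was 1.01, and NC2G0002830 at 1.02. Just outside the level condition, among genes also at 0 in all L-species libraries, were NC1G0110600 at 0.984, NC13G0025190 at 0.959 and NC2G0008200 at 0.949. Genes at 0 in all L-species libraries numbered 8816, of which 7542 were also at 0 in all X-species libraries and 1174 had reads in X below the level. The list thus lies at the upper end of a larger set with few reads.

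The condition on *N. colorata* had a similar margin. Of the genes tested, 36 had a single read in all 8 L-species libraries together, and for 21 of the 36 that read was in L1-1. The strongest of them were NC1G0065440, with a mean FPKM of 12.5 in X and its 1 read in L4-2, NC13G0061450, with a mean FPKM of 5.68, and NC3G0208130, with a mean FPKM of 4.08, both with their read in L1-1. NC1G0065440 is the ID before the member NC1G0065450. With up to 3 reads allowed in each L-species library, 215 genes met the rule.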

How the data were processed

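Leaf RNA of *N. micrantha* and *N. colorata* was sequenced on an Illumina instrument. The authors filtered the reads and used htseq-count for read counts and cufflinks for FPKM. The deposited table gives 31475 genes in FPKM. The submitters' notes name CASAVA 1.8, fastp 0.20.0, HISAT2 2.1.0, HTSeq 0.7.2, Cufflinks 2.2.1 and DESeq, and the paper a Trinity assembly. The genome build and the source of the gene IDs are not given in the sources used here, and no sequence was used.

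Groups came from the sample titles, with 0 columns unmapped. Every FPKM value above 0 (308923 of 308923) was within 0.001 of a whole read on a gene of fixed length, so reads, lengths and library totals were recovered. A length is the smallest that gives whole reads. Intervals and floors cover counting error only.

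The stage test was limma 3.58.1 in R 4.3.3 (lmFit, contrasts.fit, eBayes with trend) on log2(FPKM + 1), with 1 mean a stage, in the 8 X-species libraries. The L-species libraries were left out because their 0 values would shrink the members' standard errors. The pseudocount of 1 understates changes of low genes. Genes at FPKM of at least 1 in at least 2 X-species libraries were tested. The fit and the recovery were tested on simulated data. Tables used Python 3.11.15, numpy 2.4.6 and pandas 2.3.3, and figures matplotlib 3.10.9.

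The members and the gene lists were chosen with earlier results of these data known. Genes were named by rule: the 10 highest by mean FPKM, the largest called changes of each comparison (up to 5 in each direction at X4 against X1, up to 3 elsewhere), the highest of each run, up to 10 annotated members by mean FPKM, the 3 nearest on each side of each condition, and the 3 with the largest disagreement between libraries. Other members named for an annotation and the genes read in L1-1 were chosen after their values were seen. Alternatives were pseudocount 0.1, no filter, a fit of all 16 libraries, the replicate number as a block, median-ratio scaling, voom on the recovered reads, other levels and run widths, and leaving out each library. The rule on the 7 other L libraries was added after seeing the data.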

Additional observations from a re-analysis of the deposited data

How the results depend on the processing

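The number of genes meeting the rule was 192 at FPKM of at least 0.5, 50 at FPKM of at least 2, 60 when 4 X-species libraries had to reach the level, and 215 with up to 3 reads in each L-species library. Leaving out 1 library gave 85 to 191 genes, the highest without L1-1. The 5 runs became 4 with no ID allowed between and 7 with up to 5.

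Of the stage counts, that at X2 against X1 (0) was 1 with pseudocount 0.1 and 1 in the fit of all 16 libraries, and that at X3 against X2 (5) was 8 in the fit of all 16 libraries. By the rule on the 7 other L-species libraries the counts were 2 of 191 at X2 against X1, 12 at X3 against X2, 30 at X4 against X3, 43 at X4 against X1 and 59 for any stage difference. Leaving out 1 X-species library gave 0 to 1 at X2 against X1, 3 to 11 at X3 against X2, 4 to 18 at X4 against X3, 19 to 26 at X4 against X1 and 16 to 39 for any stage. A stage left with 1 library was assumed to vary like the others. The cause of these shifts was not tested. Of the 47 calls of single genes in the 4 comparisons, 39 stood under every alternative other than leaving out a library, 22 under every alternative, and 0 reversed. All 3 counts include calls of genes that met the rule only through the stages at which they were high. Such calls had to differ there and are given above as descriptions, so the counts are no measure of support for them.

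With the replicate number as a block, 0, 5, 17 and 25 genes were called in the 4 comparisons and 30 for any stage. At X4 against X3, 16 of the 17 genes were shared with the fit without the block, and 12 were higher and 5 lower. NC4G0022700 lost its call (adjusted p = 0.0593). The deviations of same-numbered libraries had correlations of -0.38 to 0.21 between stages. With 2 libraries a stage these cannot settle whether the numbers pair the samples.

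Depth limits the lowest members, 1 of which had 20 reads over 8 libraries, and 2 libraries a stage limit every test.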
